A study of Drosophila melanogaster with 2 samples.

Results

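The genes for the subunits of prefoldin were followed in the indirect flight muscles of *bs* KD and control flies. The members are the 6 genes *Pfdn1*, *Pfdn2*, *mgr*, *Pfdn4*, *Pfdn5* and *Pfdn6*, named for the complex they encode, out of 13931 genes in the table. All 6 were found by their FlyBase identifiers, and all were detected, where detection means 1 TPM (a transcript level corrected for length and scaled to the same total in each library) or more in either library. The *bs* KD flies carried the muscle driver *1151-Gal4* together with the RNAi transgene KK108659 against *bs*, which encodes the *Drosophila* SRF ortholog Blistered, and the control flies (*1151/+*) carried the driver alone after a cross to *w1118*. *1151-Gal4* is active in the myoblasts from which all adult muscles form, so the knockdown is not limited to flight muscle, and KK108659 targets only the *bs-RA* and *bs-RC* transcripts. Each group is 1 library from pooled flight muscles of 4 females, which were 3 days old and kept at 29°C. No difference reported here therefore has a replicate check, and no test between the groups was possible.

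Prefoldin is a chaperone of the cytosol that captures newly made actin and tubulin chains before they fold. It hands them to the ring-shaped chaperonin TRiC (also called CCT), which completes their folding. The complex is a jellyfish-shaped hexamer with tentacle-like coiled coils, built from 2 alpha-type subunits, encoded by *mgr* (*Pfdn3*) and *Pfdn5*, and 4 beta-type subunits, encoded by *Pfdn1*, *Pfdn2*, *Pfdn4* and *Pfdn6*. Flight muscle makes actin in large amounts, mostly from the gene *Act88F*.

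The deposited values gave *bs* as the target of the knockdown at 1.80 TPM in *bs* KD and 2.75 TPM in the control, or 65.6% of the control level over all *bs* transcripts together. *Act88F* stood at 7471 TPM in *bs* KD and 33116 TPM in the control. All 7 flight muscle markers were detected, at 92.1 to 16500 TPM in *bs* KD and 100.5 to 33116 TPM in the control. Of the other tissues that a dissection can carry, 6 of 6 tracheal markers were detected with a summed 11.9 TPM in *bs* KD and 46.3 TPM in the control. For fat body 5 of 6 markers were detected, with 22.7 and 25.2 TPM in *bs* KD and the control. Single markers moved in both directions. In *bs* KD and the control, *Lsp2* (0.388 and 2.34 TPM), *FASN1* (0.559 and 4.68 TPM) and *Yp2* (10.4 and 13.2 TPM) fell. *Yp1* (9.31 and 4.35 TPM) and *Yp3* (1.76 and 0.399 TPM) were higher in *bs* KD. For gut 4 of 6 were detected (10.04 TPM in *bs* KD and 2.90 TPM in the control, with *LManIII* at 0 in both). For glia 3 of 4 were detected (132 TPM in *bs* KD and 118 TPM in the control). *Gs2* alone made up 105 TPM of the glial sum in *bs* KD and 74.9 TPM in the control. The other glial markers, *Eaat1*, *moody* and *repo*, were lower in *bs* KD, with *Eaat1* at 24.9 TPM against 39.3 TPM in the control. Of 3 markers of tubular jump muscle 2 were detected, and the 3 summed to 41.0 TPM in *bs* KD and 21.3 TPM in the control. *TpnC41C* alone had 21.3 TPM in *bs* KD and 1.96 TPM in the control. The other markers did not share this rise. *Act79B* had 19.5 TPM in *bs* KD and 18.9 TPM in the control, and *TpnC73F*, not detected, had 0.0709 and 0.449 TPM. Neuronal markers were near 0 apart from *elav* (1.79 TPM in *bs* KD and 3.04 TPM in the control), none of the 4 hemocyte or 5 ovary markers was detected, and *osk*, *Vm26Ab* and *bam* were at 0 in both libraries. The part of these tissues in the prefoldin values was not tested, and in a bulk sample fewer cells of a type and less RNA per cell cannot be told apart.

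All 6 prefoldin genes stood higher in *bs* KD. On the scale of log2((*bs* KD TPM + 1)/(control TPM + 1)), which understates the change of low genes, each of them was past 2-fold, with a range of 1.23 to 2.03 and a median of 1.33. Over the 6384 detected genes the median was 0.07, and 9.38% were past 2-fold higher and 6.05% past 2-fold lower. The summed level of the family was 361 TPM in *bs* KD and 124 TPM in the control. This is a ratio of 2.91, with a counting interval of 2.72 to 3.12. Prefoldin mRNA made up 0.0361% of all TPM in *bs* KD and 0.0124% in the control. The intervals given here and below are exact 95% intervals from the reads behind each value, 3206 reads in *bs* KD and 1125 in the control for the whole family, and they cover counting error only.

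**Figure D1:**
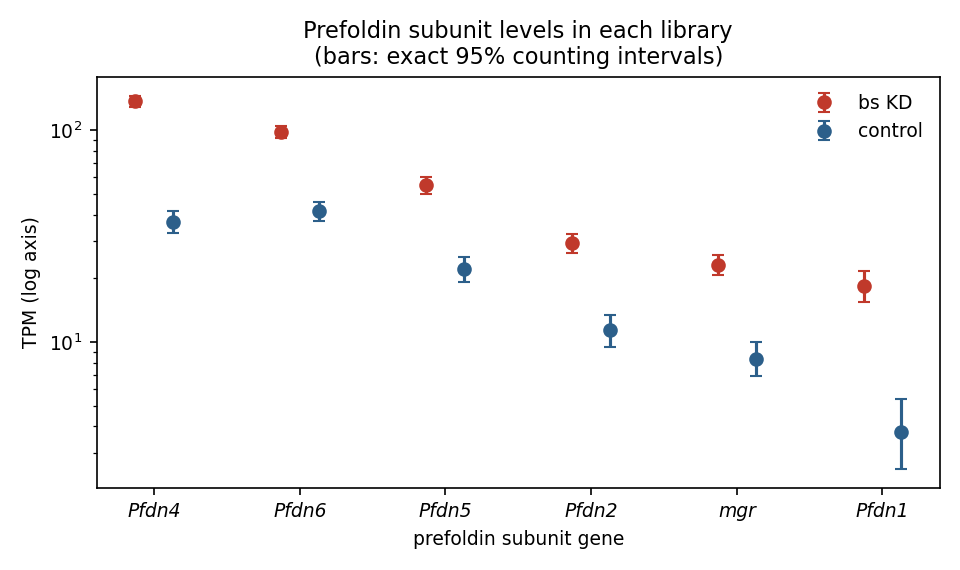
TPM of each prefoldin subunit gene (log axis) in the *bs* KD library (red) and the control library (blue), 1 library each, with exact 95% counting intervals as bars. In all 6 genes the *bs* KD value lies above the control value and the bars do not overlap, with *Pfdn4* at 137 TPM in *bs* KD and 37.0 TPM in the control.

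Among the beta-type subunits, *Pfdn4* (FBgn0035603) was the most abundant prefoldin gene in *bs* KD. It had 137 TPM in *bs* KD and 37.0 TPM in the control, from 996 and 267 reads. The ratio was 3.71 (interval 3.24 to 4.26) and the log2 change was 1.86. *Pfdn4* lies on the minus strand of chromosome arm 3L from 5367341 to 5368008 (Release 6), with 2 exons and 1 annotated transcript of 543 bases that encodes 138 residues.

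*Pfdn1* (FBgn0031776) was the least abundant prefoldin gene in both libraries and had the largest change. It had 18.4 TPM in *bs* KD and 3.75 TPM in the control. These values rest on 144 and 29 reads, the fewest of any member, and the ratio of 4.90 has the widest interval, 3.27 to 7.58. The log2 change was 2.03, and 1.39% of detected genes had a larger one. The gene is on the plus strand of 2L from 6069079 to 6069838, with 3 exons, and encodes 126 residues. Its 2 annotated transcripts differ by only 20 bases and share their coding sequence length.

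*Pfdn6* (FBgn0036918), at 98.2 TPM in *bs* KD and 41.4 TPM in the control, was the most abundant member in the control. Its change was the smallest of the family, a ratio of 2.37 with an interval of 2.10 to 2.68 from 894 and 380 reads. It lies on the plus strand of 3L from 19923671 to 19924688 with 3 exons and encodes 125 residues. *Pfdn2* (FBgn0010741) had 29.2 TPM in *bs* KD and 11.4 TPM in the control. The ratio was 2.57 (interval 2.10 to 3.16) from 349 and 133 reads. *Pfdn2* is on the minus strand of 3L from 11073292 to 11074388, with 2 exons and 143 residues.

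Of the alpha-type subunits, *mgr* (FBgn0264694, *merry-go-round*) is the fly ortholog of the human prefoldin subunit VBP1, which binds the von Hippel-Lindau protein. It had 23.2 TPM in *bs* KD and 8.36 TPM in the control, a ratio of 2.77 (interval 2.24 to 3.46) from 321 and 115 reads. It is on the minus strand of 3R from 11408792 to 11409875, and its 1 annotated transcript of 946 bases, in 3 exons, encodes the longest prefoldin protein of the fly, with 194 residues. *Pfdn5* (FBgn0038976), whose human ortholog is also known as a binding partner of MYC, had 54.9 TPM in *bs* KD and 22.1 TPM in the control. Its ratio was 2.49 (interval 2.11 to 2.95) from 502 and 201 reads. It lies on the plus strand of 3R from 22487039 to 22488110, with 3 exons and 168 residues. For all 6 members the lower bound of the ratio of deposited TPM was above 2. Other scalings, given below, lower the changes of the members, and the bounds were not computed under them.

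The changes of the members were not all of 1 size. Over the 15 pairs of members, 8 had folds whose ratio had an approximate 95% counting interval above 1, and these 8 set *Pfdn1* or *Pfdn4* against each of the other 4. The fold of *Pfdn4* was 1.56 times that of *Pfdn6* (interval 1.31 to 1.87) and 1.34 times that of *mgr* (1.04 to 1.72). The fold of *Pfdn1* was 2.07 times that of *Pfdn6* (1.36 to 3.14), and *Pfdn1* over *Pfdn4* was 1.32 (0.868 to 2.01). Among *mgr*, *Pfdn2*, *Pfdn5* and *Pfdn6* no pair was separated, with ratios of folds up to 1.17 (interval 0.916 to 1.49). These intervals were not adjusted for the number of pairs. The 2 genes set apart both encode beta-type subunits, and the other beta-type genes, *Pfdn2* and *Pfdn6*, lay with the alpha-type genes.

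The order of the subunit levels was nearly the same in both libraries, although the hexamer holds 1 copy of each subunit. In *bs* KD it ran *Pfdn4*, *Pfdn6*, *Pfdn5*, *Pfdn2*, *mgr*, *Pfdn1*, and each gene differed from the next beyond counting error, the closest being *Pfdn2* over *mgr* at 1.26 (interval 1.08 to 1.47) and *mgr* over *Pfdn1* at 1.26 (1.03 to 1.55). In the control *Pfdn6* stood at the top at 1.12 times *Pfdn4*, with an interval of 0.955 to 1.31 that includes equal levels, and the rest of the order was as in *bs* KD. The highest subunit over the lowest was *Pfdn4* over *Pfdn1* in *bs* KD, at 7.47 (interval 6.26 to 8.96). In the control it was *Pfdn6* over *Pfdn1*, at 11.1 (7.57 to 16.7). These are different pairs, so the spreads are not compared. Between *Pfdn6* and *Pfdn1* alone the gap was narrower in *bs* KD, since the fold of *Pfdn1* was 2.07 times that of *Pfdn6* (1.36 to 3.14). *Pfdn4* and *Pfdn6* together held most of the prefoldin mRNA. *Pfdn4* made up 38.0% of the summed TPM in *bs* KD and 29.9% in the control, *Pfdn6* 27.2% and 33.4%, and *Pfdn1* 5.09% and 3.02%.

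The prefoldin genes are short, and short transcripts stood higher in *bs* KD across the whole table. The effective transcript length that reads and TPM together imply ran from 444 bases for *Pfdn4* to 847 bases for *mgr*. Of the 920 detected genes within that range of length, 21.2% were past 2-fold higher and the median log2 change was 0.41, while in the class of the longest transcripts, around 6941 bases, the median was −0.24. Of the 2706 genes within the members' range of control TPM (3.75 to 41.4), 10.5% were past 2-fold higher, and of the 2348 genes that reached 10 TPM in either library 15.7% were. Of the 367 genes within both ranges 27.0% were past 2-fold higher, with a median of 0.56. The 6 members are themselves counted in each of these sets, and all of them are past 2-fold. Within these 367 genes, 6 had a larger change than *Pfdn1*, 9 a larger one than *Pfdn4*, 43 than *mgr*, 50 than *Pfdn2*, 54 than *Pfdn5* and 61 than *Pfdn6*.

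When the median of each of 20 length classes was subtracted, the log2 change was 1.61 for *Pfdn1* and 1.52 for *Pfdn4*, which stayed past 2-fold. It was 0.97 for *mgr*, 0.86 for *Pfdn2*, 0.86 for *Pfdn5* and 0.80 for *Pfdn6*, which did not. The count of prefoldin genes past 2-fold is thus 6 of 6 as deposited and 2 of 6 relative to transcripts of their own length, and the median is 1.33 and 0.91. What moved with length in these libraries was not tested, and with 1 library per group a difference between libraries and one between genotypes cannot be told apart.

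**Figure D2:**
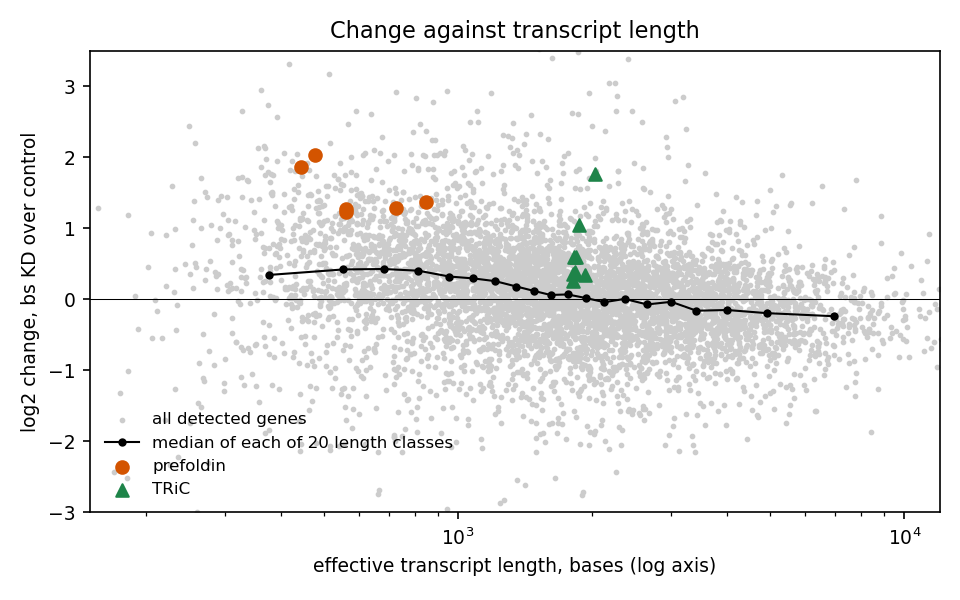
Log2 change of the detected genes, *bs* KD over control, against the effective transcript length in bases (log axis), with the median of each of 20 length classes joined by the black line. A few detected genes lie outside the axes. The 6 prefoldin genes (orange circles) lie between 444 and 847 bases and above the class medians of 0.34 to 0.43, and the 8 TRiC genes (green triangles) lie between 1805 and 2022 bases.

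TRiC, which receives actin and tubulin from prefoldin, was compared as the next step of the same route. All 8 of its genes (*CCT1* to *CCT8*) had a higher value in *bs* KD, but only 2 were past 2-fold. On the deposited TPM, 7 of them had a counting interval above 1. The lowest bounds of these were 1.03 for *CCT3* and 1.07 for *CCT6*, and bounds were not computed under other scalings. The largest change was that of *CCT2*, with 9.01 TPM in *bs* KD and 1.95 TPM in the control (ratio 4.63, interval 3.52 to 6.16), followed by *CCT7* with 6.20 TPM in *bs* KD and 2.47 TPM in the control. The smallest was that of *CCT5*, with 3.62 TPM in *bs* KD and 2.86 TPM in the control (ratio 1.26, interval 0.942 to 1.70). The median log2 change was 0.49 for TRiC, against 1.33 for prefoldin. Relative to transcripts of the same length it was 0.42 for TRiC, with the same 2 genes past 2-fold, against 0.91 for prefoldin. *CCT7* was no longer past 2-fold, which left *CCT2* alone, with 5 TPM added and under each of 3 other scalings (by median ratio, by upper quartile, and by the total without mitochondrial genes and *Act88F*). TRiC mRNA was scarce, with 3.06 to 11.6 TPM per gene in *bs* KD and 1.69 to 8.83 TPM in the control. The summed TPM of prefoldin was 7.91 times that of TRiC in *bs* KD and 4.76 times in the control. With 1 library per group the difference between the lists was not tested.

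**Figure D3:**
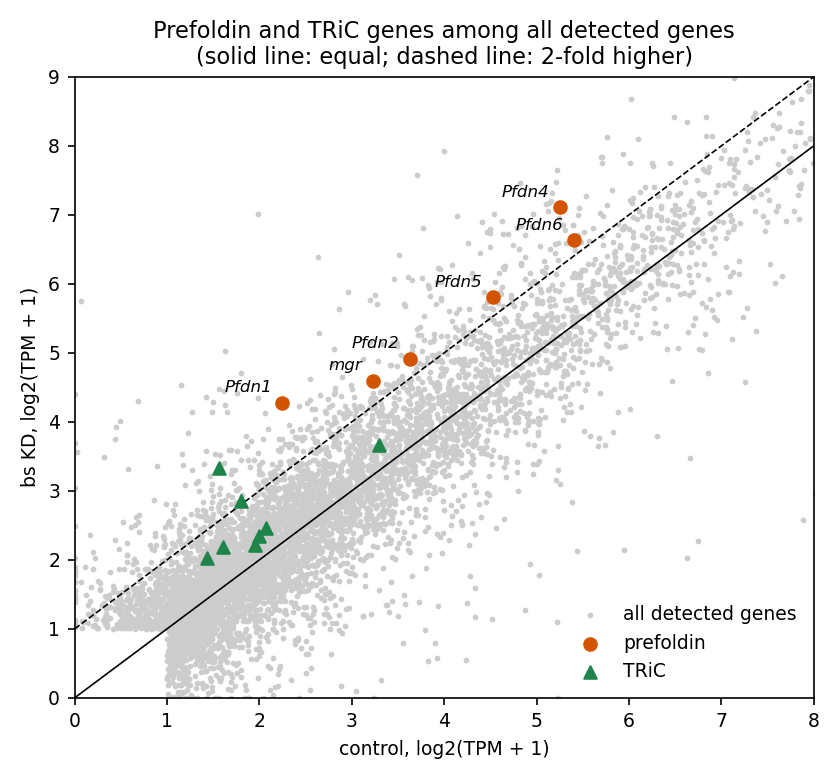
Level in *bs* KD against level in the control, both as log2(TPM + 1), for all detected genes (grey), the 6 prefoldin genes (orange, labelled) and the 8 TRiC genes (green triangles); the most abundant genes lie outside the axes. All 6 prefoldin genes lie above the dashed line of 2-fold, while 6 of 8 TRiC genes lie between it and the line of equal levels.

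Over 3 further lists, the phosducin-like genes, the tubulin folding cofactors and the partners of Uri, 1 of 12 detected genes was past 2-fold. The phosducin-like genes encode cofactors of TRiC, and *viaf* had 18.7 TPM in *bs* KD and 12.6 TPM in the control while *CG7650* had 2.20 and 1.71 TPM, with 0 of 2 detected genes past 2-fold. Of the tubulin folding cofactors, which join alpha- and beta-tubulin after TRiC, 1 of 4 detected genes was past 2-fold. This was *Tbca*, whose product holds beta-tubulin, at 6.17 TPM in *bs* KD and 1.63 TPM in the control (ratio 3.79, interval 2.16 to 7.04, from 61 and 16 reads). *Tbce* had the smallest change of that list, with 9.29 TPM in *bs* KD and 7.24 TPM in the control. The protein Uri carries a prefoldin domain and works with the R2TP chaperone complex and the RNA polymerase subunit Rpb5. In this list 0 of 6 genes were past 2-fold, and *uri* itself had a lower value in *bs* KD, 1.005 TPM against 1.503 TPM in the control, with an interval of the ratio (0.428 to 1.03) that includes no difference. The largest change there was that of *Polr2E*, the gene for Rpb5, with 12.03 TPM in *bs* KD and 6.01 TPM in the control. *uri* was thus the gene of this list with a value below the control, but it rests on 37 and 55 reads and is not separated from equal levels.

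**Figure D4:**
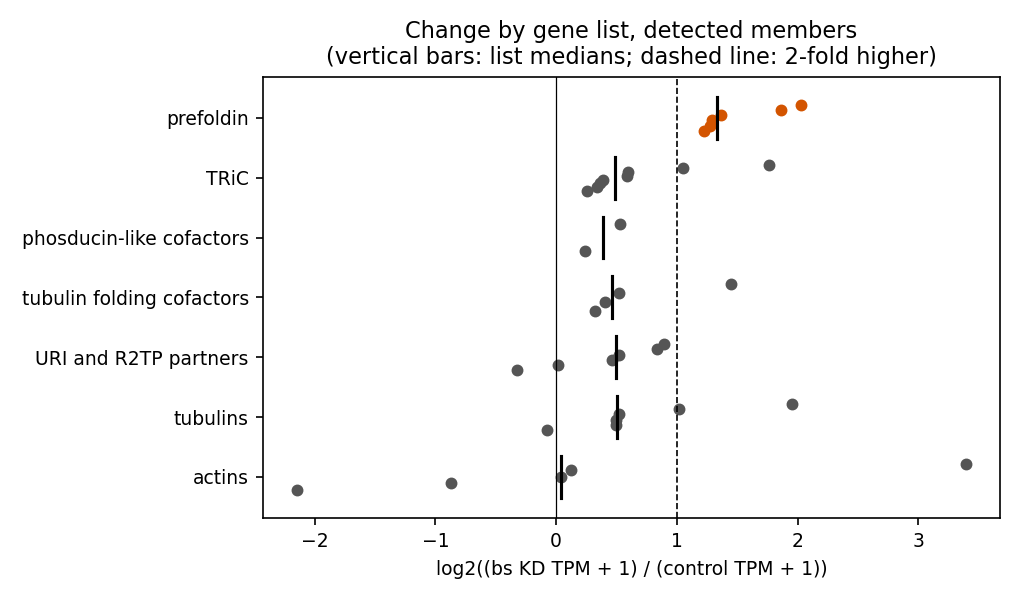
Log2 change, *bs* KD over control, of the detected genes of each list (points), with the list median as a vertical bar and a dashed line at 2-fold higher. The 6 prefoldin genes lie between 1.23 and 2.03, and the list medians of the other 6 lists lie between 0.04 and 0.51.

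The clients of prefoldin went in different directions. Of 9 tubulin genes matched by name, 6 were detected and 2 of these were past 2-fold higher. *alphaTub85E* had 5.15 TPM in *bs* KD and 0.590 TPM in the control. *gammaTub23C* had 1.89 TPM in *bs* KD and 0.422 TPM in the control. The abundant tubulins changed less, with *betaTub97EF* at 155 TPM in *bs* KD and 110 TPM in the control and *betaTub56D*, the smallest change, at 34.4 and 36.2 TPM. The summed TPM of the 9 matched tubulins was 418 in *bs* KD and 302 in the control, a ratio of 1.38 (interval 1.35 to 1.42). Of 5 detected actin genes, *Act88F* was past 2-fold lower and *Act57B* past 2-fold higher, at 31.5 TPM in *bs* KD and 2.08 TPM in the control. The summed actin TPM was 7556 in *bs* KD and 33188 in the control. There were thus 20.9 TPM of actin for each TPM of prefoldin in *bs* KD and 268 in the control, and 1.16 TPM of tubulin for each TPM of prefoldin in *bs* KD and 2.43 in the control. Actin genes and alpha-tubulin genes are close in sequence, so the assignment of reads within these families is uncertain. Divided reads were listed for *alphaTub84B* (2516.88 in *bs* KD and 1763.66 in the control) and *alphaTub84D* (3940.12 and 2725.35). The reads of *Act5C*, *Act42A*, *Act57B*, *Act79B* and *Act87E* were whole numbers in both libraries. The choice of *CCT7*, *gammaTub23C* and *betaTub97EF* was made with their values known.

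The members did not share a place in the genome. Of the 6 genes 3 lie on 3L, 2 on 3R and 1 on 2L. Of their 16 overlapping or nearest neighbours with values, 9 were detected, and 2 of these were past 2-fold higher, beside 9.38% of all detected genes. The median log2 change was 0.59 for the 9 neighbours and 0.07 over all detected genes. The 2 were *CG5376*, which overlaps *Pfdn5* (146 TPM in *bs* KD and 64.0 TPM in the control), and *Kr-h2*, to the right of *Pfdn1* (9.49 TPM in *bs* KD and 3.67 TPM in the control). The nearest gene to the right of *Pfdn5* was *CCT1*, at a distance of 994 bases, with 3.06 TPM in *bs* KD and 1.69 TPM in the control. On the side of the start of the member, the nearest gene that does not overlap it was in 4 cases transcribed away from it, with the starts within 500 bases of each other. For *mgr* the gene on the other side, *mRpL40*, was nearer, with 109.9 TPM in *bs* KD and 60.1 TPM in the control. The 4 divergent neighbours stood near the detection limit or below it. *Su(z)12*, 209 bases from the start of *Pfdn6*, had 2.25 TPM in *bs* KD and 1.98 TPM in the control. *Irbp*, 172 bases from the start of *mgr*, had 0.377 and 0.0631 TPM, *Noc1* near *Pfdn2* had 0.305 and 0.375 TPM, and *CG9150* near *Pfdn1* was listed at 0 in both. All 4 thus stayed below the level of any prefoldin gene in both libraries.

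For 4 members a gene on the other strand overlaps, with 41 to 78 exonic bases in common: *CG9154* with *Pfdn1*, *Mocs1* with *Pfdn2*, *Membrin* with *Pfdn4* and *CG5376* with *Pfdn5*. The use of strand in counting is not stated in the sources used here, so reads of such a pair could be assigned to either gene within those bases. The reads behind all 6 members were whole numbers to within 0.00253 of a read in both libraries, so no read of theirs was listed as divided with another gene. The table holds no values per transcript. For the 4 members with 2 annotated transcripts, a share of the longer one was inferred from where the implied effective length lies between the lengths of both transcripts in the later annotation, less 99 bases each. The inferred share was 6.01% in *bs* KD and 0.00124% in the control for *Pfdn2*, 0.471% and 1.18% for *Pfdn5*, and 2.84% and 6.78% for *Pfdn6*. For the longer *Pfdn1* transcript it was 16.6% in *bs* KD and 0% in the control, but its 2 transcripts differ by 20 bases and the control value rests on 29 reads. The transcripts of each gene encode the same number of residues, so these shares do not bear on protein length.

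The genes most like the family were found by distance in the plane of log2(TPM + 1) of both libraries from the median point of the members (5.36 in *bs* KD and 4.08 in the control). The 5 nearest were *mRpS18B*, a gene of the small mitochondrial ribosomal subunit, *Pax* (paxillin, a focal adhesion protein), *Sirup*, *Rac2* (a small GTPase that acts on the actin cytoskeleton) and *glob1* (a globin). *mRpS18B* had 40.6 TPM in *bs* KD and 16.4 TPM in the control, and *Pax* 39.2 TPM in *bs* KD and 16.8 TPM in the control. This likeness rests on 2 libraries, 1 value each.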

How the data were processed

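RNA of dissected indirect flight muscle was sequenced after poly-A selection, with 1 *bs* KD and 1 control library. The authors ran Salmon on Galaxy against the annotated transcripts of *D. melanogaster* release 6.21 (a version of Salmon is not named in the sources used here) and deposited TPM and estimated counts of reads per gene. The estimated counts sum to 19767477 in *bs* KD and 20955053 in the control. Of genes under 50 reads, 88.9% in *bs* KD and 89.8% in the control had counts at whole multiples of 1.12 (to within 0.02 of a read), so counts were divided by this step (1.117 and 1.116) before any interval, which leaves 17700939 and 18777042 reads. The table also holds length columns and the authors' own DESeq2 comparison, made from the same libraries, with a base mean, log2 change, standard error, Wald score and p-values. That comparison was not used.

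From the deposited TPM, log2 changes were computed with 1 TPM added, for the 6384 genes that reached 1 TPM in either library. A size of 2-fold served for counts, since 1 library per group allows no test. Ratio intervals are exact conditional binomial intervals of the reads moved to the TPM scale, except for ratios between folds, which used a normal approximation on the log scale. Lengths are the effective lengths implied by reads and TPM. Coordinates, exons and symbols (13843 genes) came from the BDGP6.54 annotation of the same assembly. For list members, *betaTub60D* was not matched by name, so the tubulin counts and sums leave it out, whatever its level. Members, lists and named genes were chosen with earlier results of these data known: all members, the largest and smallest change of each list, the 5 nearest genes, the neighbours, *bs* and *Act88F*. Alternatives covered the pseudocount, scaling, length, filter and size of change. The log2 changes and the ratio intervals were first checked on simulated libraries with known folds, of equal depth and with no trend by length. The other steps were not checked in this way. Python 3.11.15 with pandas 2.3.3 and scipy 1.17.1 was used.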

Additional observations from a re-analysis of the deposited data

How the results depend on the processing

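All 48 values of the 6 members' log2 changes under 8 alternatives were above 0, and 44 were at 1 or more. The 4 below 1 are those of *mgr*, *Pfdn2*, *Pfdn5* and *Pfdn6* relative to their length class, which leaves 2 members past 2-fold, a median of 0.91 and a summed ratio of 2.22, beside 6.20% of all detected genes. With classes by the deposited length column, an alternative added after seeing the data, all 6 stayed past 2-fold and the summed ratio was 2.53. The summed ratio was 2.66 with median-ratio scaling, 2.63 with upper-quartile scaling and 2.72 without genes of the mitochondrial genome and *Act88F*. These 3 scalings divide the *bs* KD values by factors of 0.13, 0.15 and 0.10 on the log2 scale, and each lowers the log2 changes of the members. At 3-fold, 2 prefoldin genes and 1 TRiC gene passed, beside 2.96% of detected genes, and at 1.5-fold 6 and 4 passed, beside 21.3%. The TRiC count past 2-fold was 1 with 5 TPM added and 1 with each of the 3 scalings. The share of genes past 2-fold higher was 14.2% with 0.1 TPM added, 4.10% with 5 TPM added, and 4.30% with no filter. No paired analysis was possible because each group is 1 library, and for the same reason none could be left out. Depth limits *Pfdn1* most, with 29 reads in the control.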

Other observations

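The deposited length of a gene did not always fit its TPM. Of genes with the same length in both libraries and over 100 reads, the length gave the TPM to within 1% for 84.0% in *bs* KD and 83.7% in the control, and 98.3% and 98.2% lay at a whole multiple of the value the length gives. *Pfdn6* is listed at 333 bases in *bs* KD and 343 bases in the control, while its shortest annotated transcript has 650 bases. *Pfdn1* is listed at 496 bases in *bs* KD and 575 bases in the control, while reads and TPM imply effective lengths of 479 and 476 bases. A difference in the length column between these libraries is therefore not by itself a difference in transcripts.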
